A study of Mus musculus with 2 samples.

Results

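The genes described here are 36 genes of glycolysis and the hypoxia response out of 43346 annotated genes, chosen by name from these pathways. They comprise 17 enzymes from hexokinase to lactate dehydrogenase, 4 transporters of glucose or lactate, 3 genes of flux control and pyruvate entry, 4 genes of HIF and its oxygen-dependent regulation, and 8 known HIF targets. All 36 were found in the gene tables by their identifiers.

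Glycolysis turns glucose into pyruvate, and lactate dehydrogenase turns pyruvate into lactate, which monocarboxylate transporters carry out of the cell. Many of these enzymes have several isozymes encoded by separate genes, and tissues differ in which one they use. Hypoxia-inducible factor (HIF) joins an oxygen-labile alpha subunit, such as Hif1a, with Arnt; prolyl hydroxylases of the Egln family mark the alpha subunit in the presence of oxygen, and the Vhl ubiquitin ligase then removes it. HIF is known for inducing glycolytic genes together with genes of mitophagy, pH control and blood vessel growth.

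RNA was sequenced from CH12.LX, an established, immortalized mouse B-cell lymphoma line of strain B10.H-2aH-4bp/Wts, labelled female and described as an analog of the human line GM12878. There was 1 group of 2 libraries, biological replicates 1 and 2, each from its own biosample, with no treatment or oxygen condition named. The fraction above 200 nt was used with ERCC spike-ins, and the labels call the assay total RNA-seq while their description names polyA+ RNA. The tables held 24469094 expected counts in replicate 1 and 23586580 in replicate 2, ERCC RNAs took 0.320% and 0.257% of them, all 6 B-cell markers checked were expressed (summing to 2772 and 2602 TPM), and of 6 markers of other cells only Hbb-bt was, at 4.47 ± 0.127 TPM (the 6 sum to 5.93 and 6.08 TPM, with Cd3e at 0 counts).

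Levels are in TPM, a relative transcript abundance that corrects for transcript length, so that genes can be compared, and each is given as the mean ± SD over the 2 replicates. The threshold for calling a gene expressed was 1 TPM, to be met by each replicate. With 2 replicates no permutation test can reach 0.05, so levels are called separated where the replicate ranges do not overlap. Coordinates are those of GRCm38 (mm10).

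Of the 36 genes, 33 were expressed, against 25.4% of all annotated genes and 45.9% of 21474 protein-coding genes. The exceptions were Ldhb, Egln3 and Car9. In RNA from a whole culture, fewer cells that use a gene and less of its RNA per cell cannot be told apart. The median of the 36 genes was 83.7 TPM, against 0.41 TPM for protein-coding genes, and 16 of the 36 reached 100 TPM in both replicates, against 5.88% of protein-coding genes. At 1000 TPM or more in both stood 6 of them (Aldoa, Tpi1, Gapdh, Pgk1, Pgam1 and Pkm), against 0.508% of protein-coding genes. The order from the top was Pkm, Gapdh, Tpi1, Aldoa, Pgam1, Pgk1, Eno1, Ldha and Gpi1, but 18 of the 35 neighbouring pairs in the full order overlapped over the replicates. Pkm and Gapdh, Gapdh and Tpi1, Tpi1 and Aldoa, and Eno1 and Ldha were such pairs, whereas Ldha and Gpi1 were separated. Compared within each replicate, Pkm was above Gapdh and Eno1 above Ldha in both. Gapdh and Tpi1, and Tpi1 and Aldoa, changed order between the replicates. The places of Pgam1 and Pgk1 depend on how reads were divided with the processed pseudogenes described below. With these added, the sums were 1661 ± 20.2 TPM for Pgk1 and 1340 ± 51.9 TPM for Pgam1, the reverse of their order here.

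**Figure D1:**
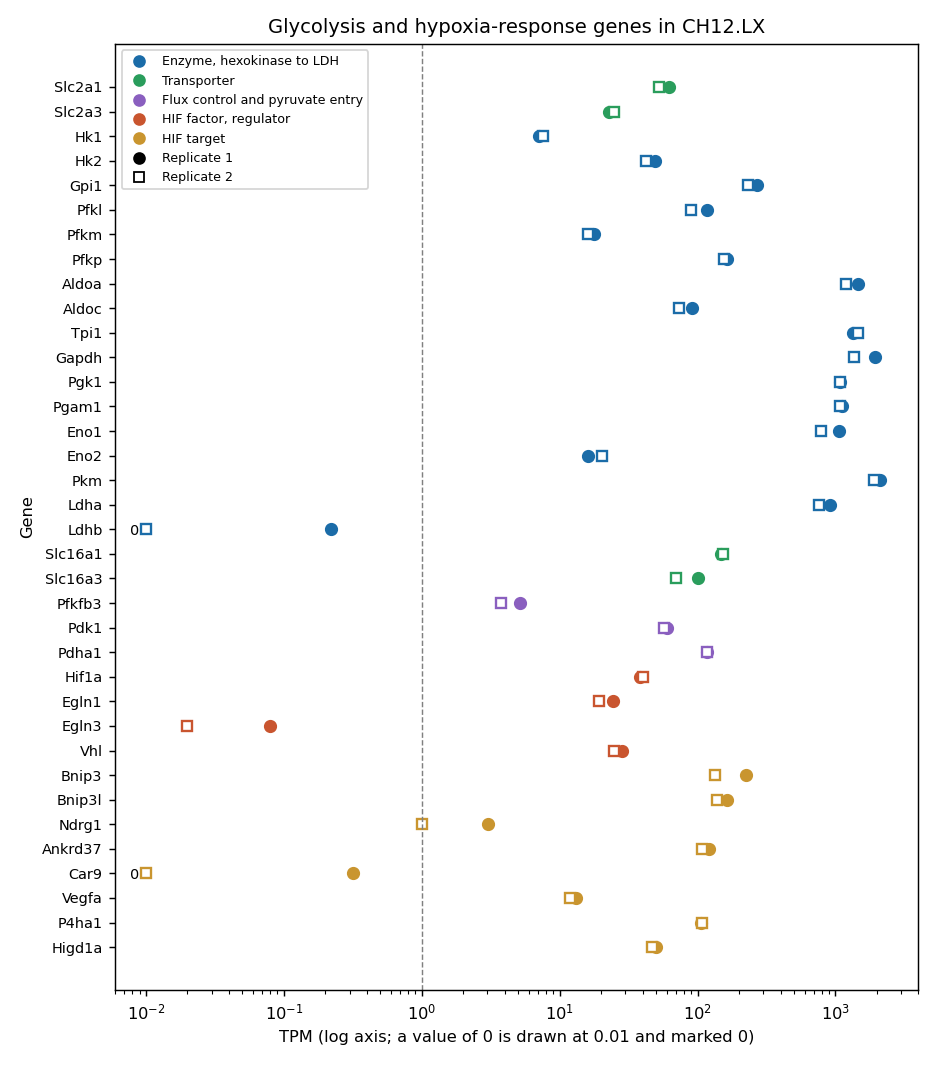
Level of each of the 36 genes in TPM (x axis, log scale) in replicate 1 (filled circles) and replicate 2 (open squares), with genes down the page in pathway order and coloured by role; the dashed line marks 1 TPM. The enzymes from aldolase to lactate dehydrogenase reach the highest levels, led by Pkm at 2105 and 1892 TPM, while Ldhb, Egln3 and Car9 lie left of the line in both replicates.

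Summed over isozymes, the transporters and the first 3 enzymatic steps were at lower levels than the steps from aldolase on. Glucose enters through facilitative transporters: Slc2a1, which encodes GLUT1 (chr4:119108711-119137983, plus strand), had 61.98 TPM in replicate 1 and 52.78 TPM in replicate 2. Slc2a3, which encodes the high-affinity transporter GLUT3, had 22.83 and 24.74 TPM. The ranges of Slc2a1 and Slc2a3 did not overlap, and Slc2a1 held 70.6% ± 3.53 of their sum. The related transporter gene Slc2a6, which is not among the 36, stood at 31.0 ± 3.48 TPM, and with the other Slc2a genes checked added to the sum, the share of Slc2a1 was 49.3%. Slc2a2, the GLUT2 transporter of liver and beta cells, had 0 counts.

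Hexokinases phosphorylate glucose and trap it in the cell. Hk2 (chr6:82725025-82774454, minus strand), the hexokinase known for induction by insulin and HIF, had 49.16 and 42.53 TPM. Hk1, the widely expressed hexokinase, had 7.13 and 7.60 TPM, so that the Hk2 level was 6.25 ± 0.918 times that of Hk1. Hk2 held 86.1% ± 1.76 of the hexokinase step, with no overlap between the genes. Of the hexokinases outside the 36 genes, Hk3 had 0 counts in replicate 1 and 1 count in replicate 2, and Hkdc1 had 0 counts in both. The hexokinase step as a whole, at 53.2 ± 4.36 TPM, was the lowest of the 11 enzymatic steps.

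Gpi1, which converts glucose-6-phosphate to fructose-6-phosphate, had 270.18 and 233.40 TPM. Phosphofructokinase, which commits the sugar to glycolysis, was carried by all 3 of its genes. Pfkp, the platelet type, had 162.57 and 155.76 TPM, Pfkl, the liver type, had 116.78 and 89.75 TPM, and Pfkm, the muscle type, had 17.84 and 16.04 TPM. Their shares of the step were 57.1% ± 3.43, 36.8% ± 3.52 and 6.07% ± 0.0918, in an order that was the same in both replicates with no overlap. Pfkfb3, whose product makes the allosteric phosphofructokinase activator fructose-2,6-bisphosphate, was low at 5.15 and 3.73 TPM. Of its relatives, Pfkfb1 averaged 5.03 TPM and Pfkfb4 3.60 TPM, with ranges that overlapped that of Pfkfb3, and Pfkfb2 was below it at 2.69 TPM. Tigar, a phosphatase that degrades the same activator, was above all of them at 8.90 ± 0.0990 TPM.

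From aldolase on, the lowest level of any step in either replicate was 766.54 TPM. Aldoa (chr7:126795234-126800751, minus strand), the muscle-type aldolase found in most tissues, had 1464.20 and 1185.50 TPM. Aldoc, the brain-type aldolase, had 91.67 and 73.70 TPM, and Aldoa held 94.1% ± 0.0275 of the step. Tpi1, which interconverts the triose phosphates, had 1340.22 and 1448.84 TPM, and Gapdh, which oxidizes glyceraldehyde-3-phosphate, had 1924.00 and 1359.13 TPM. Gapdh had the larger spread of these, with an SD of 399 TPM around a mean of 1642 TPM, against 76.8 TPM for Tpi1.

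Pgk1, the first ATP-forming enzyme of the pathway, had 1082.35 and 1073.14 TPM, and Pgam1, which moves the phosphate group of phosphoglycerate, had 1110.23 and 1085.62 TPM. Both have processed copies whose counts cannot be kept apart with confidence. The processed pseudogene Pgk1-rs7 was listed at 583 ± 13.7 TPM and Pgam1-ps2 at 242 ± 34.5 TPM, and every run of 50 bases in the annotated sequence of either copy also occurs in a transcript of its parent gene. With the copy added, the sum was 1661 ± 20.2 TPM for Pgk1 and 1340 ± 51.9 TPM for Pgam1. The levels of these genes are uncertain within that range. The pseudogenes named after Gapdh, Ldha and Vhl had at most 2.69 TPM on average and Bnip3l-ps, a copy of Bnip3l, had 11.9 TPM. Pseudogenes were looked for by name alone, so copies under other names were not examined. The counts of Gapdh, Ldha and Bnip3l were divided between genes as well.

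Enolase forms phosphoenolpyruvate. Eno1, the ubiquitous enolase, had 1066.90 and 786.62 TPM, and Eno2, the neuronal enolase, had 16.00 and 20.31 TPM. Eno1 held 98.0% ± 0.735 of their sum. Eno1b, a near copy of Eno1 outside the 36 genes, was listed at 37.4 ± 1.66 TPM, and 75.3% of the runs of 50 bases in its sequence also occur in Eno1 transcripts, so its level is uncertain too. Eno3, the muscle enolase, had 17.6 ± 0.113 TPM, and with both added the share of Eno1 was 92.5%.

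Pkm (chr9:59656368-59679375, plus strand), the pyruvate kinase gene of muscle and most proliferating cells, was the highest of the 36 with 2105.11 and 1892.02 TPM, and it ranked 53 among protein-coding genes. Pklr, the gene of the liver and red-cell pyruvate kinase, had 0 counts in both replicates. Pkm makes the isoforms M1 and M2 by including one of a pair of mutually exclusive exons of 167 nt each. The M2 exon is the one known from proliferating cells and tumours, the M1 exon that of muscle and brain. Both are coding exons, and they are shown because the deposited transcript values tell them apart; capitals mark the 64 positions at which they differ (61.7% identical). The sequences are from the GENCODE M21 transcripts, 5′ to 3′ on the plus strand, the M1 exon at chr9:59675029-59675195 and the M2 exon at chr9:59675568-59675734.
Pkm M1 exon: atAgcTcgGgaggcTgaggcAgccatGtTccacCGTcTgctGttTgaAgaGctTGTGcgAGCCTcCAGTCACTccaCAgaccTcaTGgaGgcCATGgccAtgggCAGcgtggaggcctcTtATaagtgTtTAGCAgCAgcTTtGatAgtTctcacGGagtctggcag
Pkm M2 exon: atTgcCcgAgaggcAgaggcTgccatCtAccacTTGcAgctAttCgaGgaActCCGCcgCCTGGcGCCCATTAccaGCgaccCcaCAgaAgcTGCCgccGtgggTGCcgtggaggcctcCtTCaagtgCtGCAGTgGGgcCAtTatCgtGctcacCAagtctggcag

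The transcript with the M2 exon (Pkm-201) had 2059.59 and 1853.72 TPM, and the transcript with the M1 exon had 45.51 and 38.30 TPM. The M2 exon thus held 97.91% ± 0.0990 of Pkm and the M1 exon 2.09% ± 0.0990, with no overlap between the transcripts and nearly equal shares in both replicates. The expected counts of the M1 transcript were 2102 and 1697. They cover the whole transcript, and reads that touch neither exon can be divided between the transcripts only by estimation. How many reads fell on the M1 exon itself is not known from these values.

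Lactate dehydrogenase was almost wholly Ldha. Ldha (chr7:46841475-46855627, plus strand), the muscle-type subunit that favours lactate formation, had 917.39 and 766.54 TPM. Ldhb, the heart-type subunit, had 0.22 TPM from 3 counts in replicate 1 and was listed at 0 in replicate 2, where 3 counts would be 0.205 TPM. Ldhb made up 3 of 25790 lactate dehydrogenase counts in replicate 1, or 0.0116% with a 95% Wilson interval of 0.00396% to 0.0342%. In replicate 2 it made up 0 of 20618, with a 95% Wilson interval up to 0.0186%, and 3 counts would be a share of 0.0146%. Intervals and limits of this kind cover counting error only. Ldhc, the testis subunit, had 0 counts.

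The promoters of this pair, with those of the 2 highest HIF targets described below that have an entry in the RefSeq table, are shown as context for genes at opposite ends of the range. Capitals mark the core letters of the hypoxia response element, searched as ACGTG and GCGTG on both strands (CACGT and CACGC when read on the other), where the palindrome CACGTG holds overlapping matches. The windows are the 250 bases before the RefSeq start (GRCm38.p6), less the 13 bases for Bnip3 and 17 for Ankrd37 that lie in annotated exons, each read 5′ to 3′ on the gene's strand. They lie at chr7:46845554-46845803 (plus) for Ldha, chr6:142507958-142508207 (minus) for Ldhb, chr7:138909520-138909756 (minus) for Bnip3 and chr8:45999868-46000100 (minus) for Ankrd37.
Ldha promoter: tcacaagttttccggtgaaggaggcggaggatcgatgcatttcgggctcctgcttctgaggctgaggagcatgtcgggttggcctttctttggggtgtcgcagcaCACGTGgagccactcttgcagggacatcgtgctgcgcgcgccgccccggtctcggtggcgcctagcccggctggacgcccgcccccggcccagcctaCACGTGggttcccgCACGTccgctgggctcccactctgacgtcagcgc
Ldhb promoter: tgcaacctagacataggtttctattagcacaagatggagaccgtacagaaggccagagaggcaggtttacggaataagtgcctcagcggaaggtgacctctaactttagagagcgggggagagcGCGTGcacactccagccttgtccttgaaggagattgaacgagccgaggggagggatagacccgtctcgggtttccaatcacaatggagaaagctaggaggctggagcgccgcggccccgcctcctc
Bnip3 promoter: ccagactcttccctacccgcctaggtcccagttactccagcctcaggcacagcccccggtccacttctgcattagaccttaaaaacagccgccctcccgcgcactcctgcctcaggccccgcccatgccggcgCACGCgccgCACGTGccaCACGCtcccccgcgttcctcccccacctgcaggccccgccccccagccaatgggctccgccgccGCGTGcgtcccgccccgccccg
Ankrd37 promoter: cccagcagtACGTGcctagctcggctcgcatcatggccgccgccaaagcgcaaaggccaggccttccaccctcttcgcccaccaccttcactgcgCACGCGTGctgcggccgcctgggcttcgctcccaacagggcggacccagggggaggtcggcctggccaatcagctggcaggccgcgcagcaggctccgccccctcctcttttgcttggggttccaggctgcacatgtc

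The letters occurred in 3 stretches of the Ldha window, 1 of the Ldhb window, 4 of the Bnip3 window and 2 of the Ankrd37 window. Over all members with an entry they were in 37 of 47 windows (78.7%), belonging to 29 of 33 genes. They were also in 57.2% of the 10040 windows of expressed protein-coding genes and in 38.6% of all 32851 windows. The windows without a match in any entry were those of Gpi1, Tpi1, Eno2 and Vhl, of which Tpi1 stood among the highest genes. CG dinucleotides, which the searched letters contain, had a median of 14 per member window, 16 per window of expressed protein-coding genes and 6 per window of all genes. A match describes the letters and not binding, and no match says only that they are absent from these 250 bases.

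Taking the enzymes from hexokinase to lactate dehydrogenase together, the 17 genes made up 1.17% of all TPM in replicate 1 and 1.02% in replicate 2 (mean 1.10% ± 0.106). By step the levels were 53.2 ± 4.36 TPM for hexokinase, 252 ± 26.0 TPM for the isomerase Gpi1 and 279 ± 25.2 TPM for phosphofructokinase. They were 1408 ± 210 TPM for aldolase, 1642 ± 399 TPM for Gapdh, 945 ± 195 TPM for enolase, 1999 ± 151 TPM for pyruvate kinase and 842 ± 107 TPM for lactate dehydrogenase. All 3 steps before aldolase lay below all 8 from aldolase on in both replicates.

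**Figure D2:**
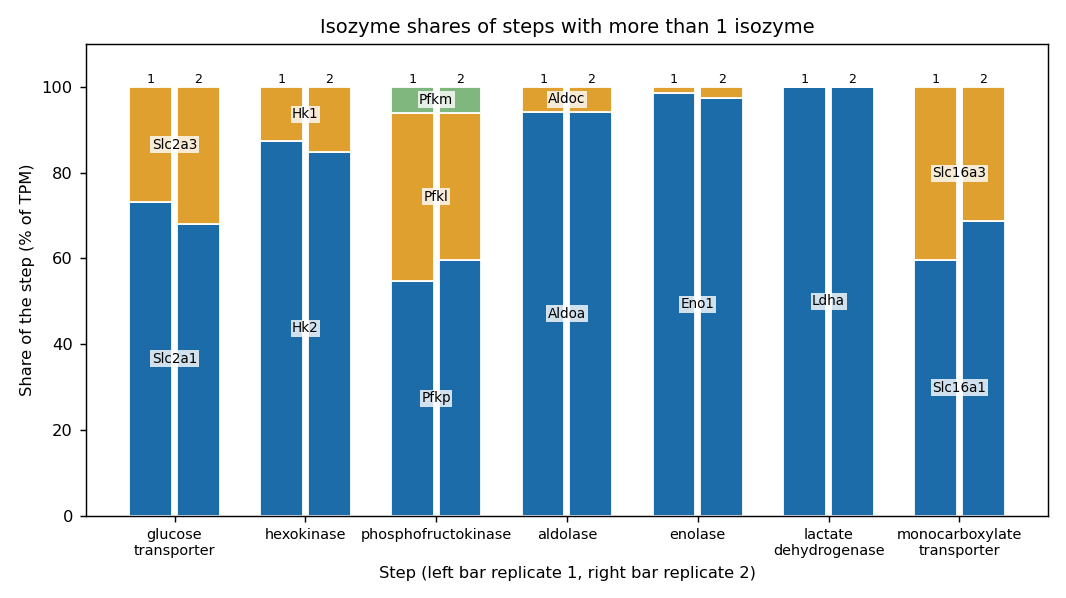
Share of each isozyme in the TPM of its step (y axis, %), for the steps with more than 1 isozyme among the 36 genes, with replicate 1 as the left and replicate 2 as the right bar of each pair. 1 gene holds over 85% of hexokinase (Hk2), aldolase (Aldoa), enolase (Eno1) and lactate dehydrogenase (Ldha) on average, while phosphofructokinase and both kinds of transporter are divided between genes. The thin top segment of enolase is Eno2, and Ldhb is too small to be seen.

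Lactate leaves the cell through monocarboxylate transporters. Slc16a1, which encodes MCT1, had 147.58 and 151.81 TPM, and Slc16a3, which encodes the export transporter MCT4, had 100.05 and 69.29 TPM. Slc16a1 was higher in both replicates, with 64.1% ± 6.41 of their sum, and the share was 85.6% by counts, without the length correction. On protein-coding transcripts of 1000 nt or more alone, the share was 83.5%, because much of the Slc16a3 level rests on a shorter transcript. Slc16a7 and Slc16a8, which encode other monocarboxylate transporters, had 0 counts. Bsg, the chaperone that brings MCT1 and MCT4 to the membrane, was high at 509 ± 53.1 TPM, and the related chaperone Emb had 0 counts.

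Pyruvate can instead enter the mitochondrion, where pyruvate dehydrogenase makes acetyl-CoA and the kinases of the Pdk family switch that enzyme off. Pdha1, its E1 alpha subunit, had 117.33 and 117.69 TPM, the smallest spread of the 33 expressed genes relative to its level. The level of Ldha was 7.17 ± 0.923 times that of Pdha1. Pdk1, the HIF-induced kinase, had 60.55 and 57.50 TPM, and its relative Pdk3 was 1.09 ± 0.0312 times as high at 64.4 ± 0.516 TPM. Pdk2 and Pdk4 had 0 counts in both replicates, where 3 counts would be at most 0.209 TPM. Of 11 other genes of pyruvate entry, 9 were expressed, among them the mitochondrial pyruvate carrier gene Mpc1 at 184 ± 8.85 TPM.

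Neighbouring pathways were measured for comparison. All 7 genes of the pentose phosphate pathway were expressed, from G6pdx, which opens the pathway, at 33.0 ± 1.05 TPM to the transketolase Tkt at 263 ± 21.02 TPM. Of 7 genes of gluconeogenesis, 3 were expressed: the mitochondrial phosphoenolpyruvate carboxykinase Pck2 at 64.7 ± 3.25 TPM, G6pc3 at 22.1 ± 2.79 TPM and the pyruvate carboxylase gene Pcx at 5.01 ± 0.969 TPM. The cytosolic Pck1, Fbp1, Fbp2 and G6pc had between 0 and 4 counts in each library. Of 24 other isozymes, transporters and phosphofructokinase regulators checked beside the 36 genes, 9 were expressed, Eno1b the highest. Among these 9, the genes of enzymatic steps were Bpgm, Eno1b and Eno3, and the others were transporters or regulators.

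HIF itself was represented by 1 alpha subunit. Hif1a (chr12:73901375-73947530, plus strand) had 38.50 and 39.98 TPM, while Epas1, which encodes HIF-2 alpha, had 0.08 and 0.05 TPM and Hif3a had 0.04 and 0.02 TPM. Arnt, the partner subunit, had 10.2 ± 0.120 TPM, so that the Hif1a level was 3.84 ± 0.0572 times that of Arnt, and Arnt2 had 3 and 4 counts. Protein, by which HIF is mainly controlled, was not measured.

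Of the prolyl hydroxylases, Egln1 (PHD2), the main oxygen sensor of HIF, had 24.31 and 19.33 TPM, and Egln2 (PHD1) had 28.8 ± 0.431 TPM. Egln3 (PHD3), itself a HIF target, had 0.08 TPM from 4 counts in replicate 1 and 0.02 TPM from 1 count in replicate 2. Hif1an, the asparaginyl hydroxylase of HIF, had 5.94 ± 0.636 TPM. Vhl, which recognizes hydroxylated HIF, had 28.12 and 24.92 TPM. Its ligase partners were expressed too, with Elob at 312 ± 82.4 TPM, Eloc at 272 ± 15.5 TPM, Rbx1 at 77.6 ± 0.877 TPM and Cul2 at 58.9 ± 5.44 TPM. In all, 7 of the 10 other genes of HIF and its turnover were expressed.

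The 8 HIF targets among the 36 genes ranged from 0.16 to 180 TPM on average. Bnip3 and Bnip3l, receptors that mark mitochondria for autophagy, were the highest. Bnip3 (chr7:138890836-138909519, minus strand) had 226.08 and 134.46 TPM, and Bnip3l had 163.42 and 139.48 TPM, so their ranges overlapped. Ankrd37, a small ankyrin-repeat protein induced by HIF, had 120.81 and 108.27 TPM, and P4ha1, a collagen prolyl hydroxylase subunit, had 105.98 and 107.71 TPM. Higd1a, a mitochondrial inner membrane protein, had 49.92 and 47.11 TPM. Vegfa, the angiogenic growth factor, had 13.19 and 11.82 TPM.

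At the low end, Ndrg1, a stress-responsive gene widely used as a marker of hypoxia, had 3.02 TPM in replicate 1 and 1.01 TPM in replicate 2. Car9, the membrane carbonic anhydrase that is among the most HIF-dependent genes known, had 1 count in replicate 1 and 0 counts in replicate 2, where 3 counts would be 0.949 and 0.236 TPM. Its relative Car12 had 27.4 ± 2.41 TPM. Of 22 further HIF targets, 15 were expressed, the highest being the transferrin receptor gene Tfrc at 673 ± 41.4 TPM, Fam162a at 259 ± 1.18 TPM and the disulfide oxidase gene Ero1l at 197 ± 36.3 TPM. Lox, a collagen crosslinking enzyme, and Epo, the erythropoietin gene, had 0 counts.

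Deposited transcript values were compared for 8 of the genes. Besides Pkm, Ldha and Aldoa rested on 1 transcript each, Ldha-202 with 97.1% ± 0.339 and Aldoa-201 with 90.2% ± 1.499 of the gene. Hif1a was divided between Hif1a-201, with 56.1% ± 1.70, and Hif1a-202, which starts further upstream, with 39.3% ± 3.29. Vegfa was divided between the 7-exon transcript Vegfa-202, with 41.7% ± 0.764, and the 6-exon transcript Vegfa-201, with 35.7% ± 6.84. Pfkfb3-220 held 69.4% ± 2.97 of Pfkfb3. Hk1-202 held 94.81% of Hk1 in replicate 1 and 71.75% in replicate 2. Of the 33 expressed genes, 13 had over 90% of their TPM on 1 transcript in both replicates, 4 of them because the tables list no other.

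**Figure D3:**
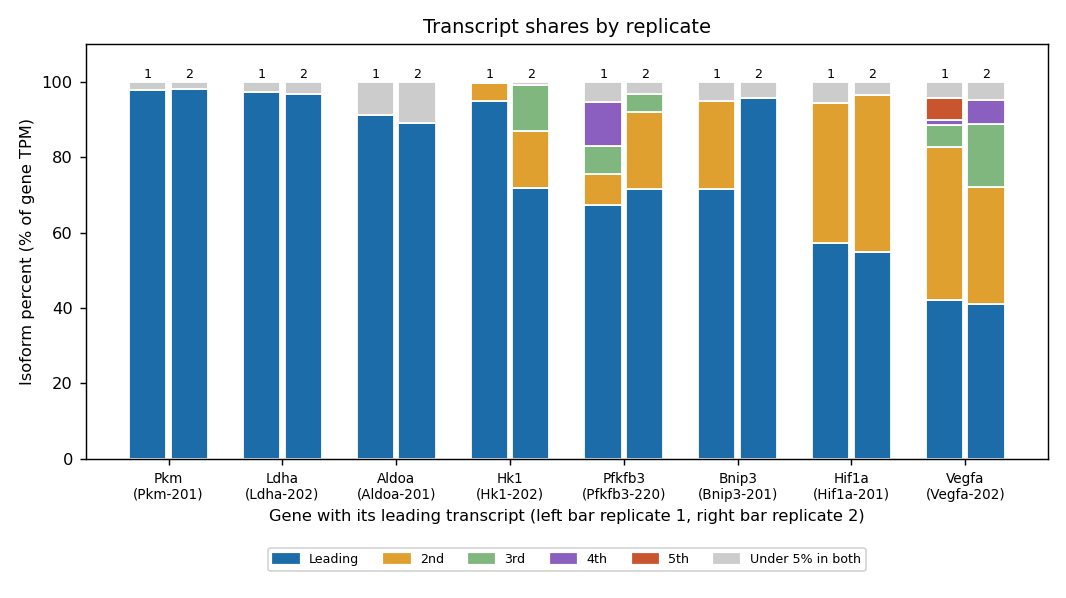
Share of each transcript in the TPM of its gene (y axis, isoform percent) for 8 genes, with the leading transcript named below each pair of bars, replicate 1 left and replicate 2 right. Pkm, Ldha and Aldoa rest on 1 transcript, Hif1a and Vegfa are divided in both replicates, and the second transcript of Bnip3 is present in replicate 1 at 23.51% and at 0 in replicate 2.

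Short transcripts took different shares of some genes in the replicates. Bnip3-203, a transcript of 719 nt, took 551 counts and 23.51% of Bnip3 in replicate 1, and 0 counts in replicate 2. Eno1-205, of 773 nt, took 26.92% of Eno1 in replicate 1 and 6.84% in replicate 2. Transcripts under 1000 nt held 36.6% and 22.6% of the TPM of Hk2, from 3.89% and 2.01% of its counts. They held 38.3% and 33.0% of the TPM of Gapdh, from 12.2% and 9.92% of its counts. For Slc16a3 they held more, 64.6% and 65.4% of the TPM from 37.2% and 37.8% of the counts. For Eno2 they held 49.1% and 44.9% of the TPM. On protein-coding transcripts of 1000 nt or more alone, a choice made after these values were seen, Gapdh had 1176 and 902 TPM. On the same transcripts Hk2 had 31.19 and 32.92 TPM and Slc16a3 had 35.43 and 23.95 TPM.

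The replicates were then compared directly, as replicate 2 minus replicate 1 of log2(TPM + 0.5), over the 33 members and 11661 genes in all with a mean of 20 or more counts; the pseudocount understates differences of low genes. Of the 33 genes, 25 were lower in replicate 2 and 8 were higher, against 50.2% lower of all 11661 genes. Their median difference was -0.16, and that of all genes was -0.00. Among genes of 1000 or more counts, 21 of 27 members were lower, against 42.1% of 4722 genes. Of the 22 further HIF targets, 17 had enough counts, and 13 of these were lower (median -0.22). Of the 7 tested other genes of HIF and its turnover, 3 were lower and 4 higher (median 0.02). Several further lists were also mostly lower. Of the other isozymes, transporters and phosphofructokinase regulators, 9 of 12 tested genes were lower (median -0.15). So were 5 of 7 genes of the pentose phosphate pathway (median -0.08) and 5 of 6 B-cell markers (median -0.14). All 3 tested genes of gluconeogenesis were lower too (median -0.25). Of the 9 tested genes of pyruvate entry, 7 were higher and 2 lower (median 0.09). Whether the members differ from these lists was not tested.

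With 1 library on each side, these differences describe the libraries and their cultures alone. By counts with TMM factors, 26 members were lower and 7 higher, against 49.6% lower of all genes. Scaling to the ERCC RNAs shifts every gene alike, which put the median of all genes at 0.30 and that of the members at 0.13, so that 24 of the 33 members were higher in replicate 2 on that scale. The members' median lay 0.17 below that of all genes by counts, a gap that no choice of scaling factor can change. What lies behind the difference was not tested.

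Beyond 1.5-fold by TPM lay 2 members, Ndrg1 and Bnip3, both lower in replicate 2, against 1.84% of all genes that far lower. Ndrg1 differed by -1.22 by TPM and -1.47 by counts with edgeR's TMM factors (158 and 54 counts), where it was the single member that far lower, against 2.29% of all genes. Bnip3 differed by -0.75 by TPM but by -0.47 by counts and by -0.33 on protein-coding transcripts of 1000 nt or more, which is under 1.5-fold. The next largest were Slc16a3 at -0.53, Gapdh at -0.50, Eno1 at -0.44 and Pfkfb3 at -0.42. Eno1 differed by -0.20 by counts. Pdk1 differed by -0.07 by TPM and by -0.30 by counts (5089 and 3937 counts). Hk2, Hk1 and Tpi1 changed direction with the scale: Hk2 was lower in replicate 2 by TPM (-0.21) and higher by counts (0.06), while Hk1 (0.09 and -0.09) and Tpi1 (0.11 and -0.06) were higher by TPM and lower by counts.

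**Figure D4:**
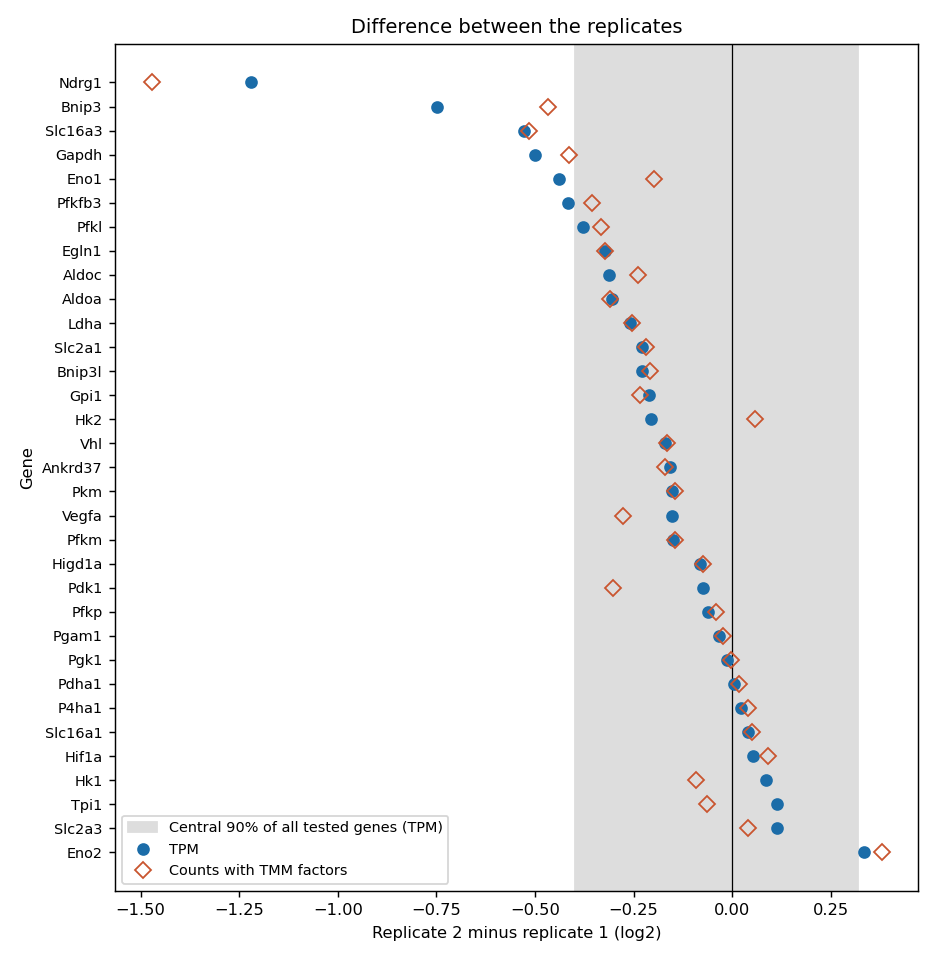
Difference between replicate 2 and replicate 1 on the log2 scale (x axis) for the 33 members with enough counts, by TPM (filled circles) and by counts with TMM factors (open diamonds); the grey band is the central 90% of all tested genes by TPM, from -0.40 to 0.32. Ndrg1 lies furthest from 0 at -1.22, most members lie left of 0, and Eno2 lies furthest to the right at 0.33.

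A two-sided exact binomial test of the counts against the library totals, with Benjamini-Hochberg adjustment at 0.05 over the 9859 genes with whole counts in both libraries, asked whether differences exceeded counting error. Of 24 members that could be tested, 15 were lower in replicate 2, 1 was higher and 8 did not pass, against 15.1% lower, 14.5% higher and 29.6% in either direction of all tested genes. The member that was higher was Eno2 (440 and 546 counts, adjusted p = 0.000572 by the exact binomial test). Among those lower were Ndrg1 (adjusted p = 7.02e-11), Pfkl (6568 and 4972 counts, adjusted p = 5.65e-36) and Slc16a3 (2613 and 1743 counts, adjusted p = 3.72e-31), all by the exact binomial test. Tpi1 was lower by this test although its TPM was higher. Hif1a, Hk1, Hk2, Slc2a3, Pfkm, Slc16a1, Pdha1 and P4ha1 did not pass. Deep genes pass on small differences: among genes of 1000 or more counts, 12 of 18 members were lower and 0 higher, against 19.6% lower and 28.1% higher of 3977 genes. These p-values measure counting error between 2 libraries and no condition. The 9 members whose counts were divided between genes, Gapdh, Ldha, Pgk1, Pgam1, Eno1, Gpi1, Bnip3, Bnip3l and Higd1a, were left out of this test. With rounded counts of all 11661 genes in the exact binomial test, 22 of 33 members were lower and 1 was higher, against 16.0% lower and 15.7% higher of all genes. Of the 9, Pgk1 and Higd1a did not pass and the other 7 were lower, without allowance for how their counts were divided.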

How the data were processed

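Each library came with a gene table and a transcript table. Aligner and quantifier: not given in the sources used here; the accompanying notes name mm10 and GENCODE annotation M4. Expected counts (estimated reads per feature, shared reads divided) and TPM are, per the file headers, the values used; TPM were scaled by the authors over all features including spike-ins. FPKM, the isoform percent and posterior mean counts with their SD were also deposited by the authors; FPKM and posterior mean TPM served as alternatives. The largest posterior SD of a member's count was 0.487% of it in replicate 1 and 0.505% in replicate 2. Both values are those of Pgk1, whose level is uncertain because of its copy Pgk1-rs7. Whether this SD covers the division of reads between gene and copy was not tested. Every sample value in the tables belongs to 1 labelled library, and nothing shows that the biosamples were grown apart.

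Symbols, types, coordinates and transcript sequences came from GENCODE M21 on the same assembly, and promoters from RefSeq; 33 of 36 members had a promoter entry. The members and the gene lists were chosen with earlier results of these data known. Every member is named; of other lists, the counts, extremes and genes that complete a step or complex, and of transcripts, 8 genes at 5% or more. Other list genes named in the text, such as Car12 and Slc2a6, and the 50-base comparison of copies were chosen after values were seen. Counts within 0.001 of a whole number were called whole. Python 3.11.15, pandas 2.3.3, SciPy 1.17.1 and edgeR 4.0.16 (TMM factors on rounded expected counts) were used. The counting test was tested on simulated data. A limit of 3 counts stands behind each 0; with no molecular identifiers, reads may repeat a molecule. Alternatives were other thresholds, pseudocounts, count minimums, scalings and isozyme lists, and each replicate alone.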

Additional observations from a re-analysis of the deposited data

How the results depend on the processing

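Of 76 alternatives over 13 results, 57 kept the direction and stayed within 1 SD or, for counts, within 1.5 times, 14 moved a value, 4 lowered a count and 1 turned a sign. The enzymes' share was 1.43% by expected counts and 1.45% over nuclear protein-coding genes, against 1.10%. By posterior mean TPM, the leading shares were 78.9% for Hk2, 94.1% for Aldoa and 99.96% for Ldha; by expected counts they were 92.8% for Aldoa, 62.8% for Slc2a1 and 85.6% for Slc16a1; with other isozymes added they were 92.5% for Eno1 and 49.3% for Slc2a1. On protein-coding transcripts of 1000 nt or more, chosen after the data were seen, they were 82.4% for Hk2, 94.8% for Aldoa, 99.4% for Eno1 and 83.5% for Slc16a1. The leading gene was the same under these alternatives. Members over 1.5-fold numbered 2 by TPM and 1 by posterior mean TPM, by TMM factors, by size factors and on the long transcripts. Without the count filter they numbered 3. Members outside counting error numbered 16, and 23 with rounded counts of all genes, 17 with TMM-scaled totals and 16 with posterior mean counts; expressed members numbered 31 to 34. The members' median difference was 0.13 when scaled to ERCC RNAs, against -0.16; that scaling put the median of all genes at 0.30. No paired analysis was possible because there is 1 group, and leaving out a replicate gives no difference between replicates. The count of expressed members and the leading isozymes were the same in either replicate alone. With 2 replicates each value lies within 1 SD of their mean, so leaving 1 out could not count as moving a share. For the shares, those alternatives are among the 57 and do not measure stability. Depth limits Ldhb, Egln3 and Car9, with 0 to 4 counts, and the cause of the moved values was not tested.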
